A study of Ovis aries with 26 samples.

Results

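The genes described here are the numbered zinc finger genes of sheep (symbols of the form ZNF followed by a number) that were present at a sizeable level in oocytes or preimplantation embryos. Of 258 such genes in a table of 30186 genes, 100 reached an FPKM of 5 in 3 or more of the 26 libraries, and these 100 were selected on that level alone. FPKM counts fragments relative to the length of the gene (per kilobase) and to the depth of the library (per 1e6 assigned fragments). The study collected mature oocytes of Ovis aries and embryos made from them by in vitro fertilization and grown in culture. The 8 stages were metaphase II oocytes (MII, 2 libraries), embryos of 2 cells (2C, 4 libraries), of 4 cells (4C, 3), of 8 cells (8C, 4) and of 16 cells (16C, 3), morulae (3), early blastocysts (EarlyB, 3) and expanded blastocysts (ExpB, 4). Every stage except MII had been fertilized and cultured in the same way. Poly(A) RNA was copied by Smart-seq2, which amplifies full-length cDNA from a few cells. The labels do not say how many oocytes or embryos went into a library, nor whether replicates were separate animals or pools, so the p-values speak only of how much these libraries vary.

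Zinc fingers of the C2H2 type are small folds held together by a zinc ion, and proteins with rows of them form the largest family of DNA-binding proteins in mammals. Many carry a KRAB domain, which recruits TRIM28 (KAP1) and through it the histone methyltransferase SETDB1 to silence transposable elements and imprinted genes, a task with a known part in early embryos. Others lack KRAB and act as promoter activators, or work on RNA, ribosomes or the spindle.

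Because the level in these same libraries chose the genes, counts over the 100 are a description, and a gene that entered through a single stage was bound to differ there. That applied to ZNF554 in morulae and ZNF697 in ExpB, the 2 genes with an FPKM of 5 or more in libraries of 1 stage only, whereas 22 genes reached it in some library of all 8 stages. The genes nearest to the limit had a third-highest FPKM of 5.07 (ZNF445), 5.10 (ZNF174) and 5.30 (ZNF641) inside it, and of 4.84 (ZNF582), 4.83 (ZNF114) and 4.82 (ZNF408) outside it. All 100 passed the filter for testing. C2H2 genes are a family in which many members resemble each other, and which of the 100 are near-identical was not examined. How reads that match several copies were counted is not given in the sources used here, so levels of near-identical members are uncertain.

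Assigned reads, recovered from the steps of the values, numbered 16.0 to 35.6 per library in units of 1e6, with the lowest depths in EarlyB. Libraries of 1 stage correlated at 0.913 to 0.992 across genes. The summed FPKM of 10 oocyte genes was 12.7 to 27.4 in ExpB libraries and 9745 to 12260 in MII libraries, while that of 8 trophectoderm genes was 3330 to 7514 in ExpB and 5.59 to 6.10 in MII, which matches the labelled stages. Of 13 cumulus and granulosa genes, 11 were in the table. Their summed FPKM was 31.7 to 41.0 in MII, 62.3 to 248.7 at 2C, 150.7 to 557.2 at 4C, 20.9 to 139.6 at 8C and 2.26 to 6.26 in ExpB.

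Between 82 and 98 of the 100 genes had an FPKM of at least 1 in each library. On the deposited FPKM scale, levels were lowest in the first and last stages. Median-ratio scaling, an alternative used below, divides MII libraries by 0.733 and 0.816 and EarlyB libraries by 1.22 to 1.26. The low level in MII therefore depends on the scale, and the values that follow are on the deposited one. At an FPKM of at least 5 the number was 38 to 47 in MII libraries, 55 to 59 at 2C, 57 at 4C, 57 to 60 at 8C, 52 to 61 at 16C, 52 to 69 among the morula libraries, 61 to 67 in EarlyB and 39 to 43 in ExpB. The median over the genes was 3.45 to 4.70 FPKM in MII, 6.18 to 6.84 at 8C, 6.15 to 6.71 in EarlyB and 3.83 to 4.15 in ExpB. The lowest stage mean lay in MII for 34 genes and in ExpB for another 34. In bulk libraries, fewer cells of a type and less RNA per cell cannot be told apart.

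The gene with the highest level was ZNF706, a small protein with a single finger that is linked to exit from self-renewal in mouse embryonic stem cells. Its FPKM was 657 and 1186 in MII, 784, 770, 761 and 771 at 2C, 485, 685 and 640 at 4C, 608, 692, 858 and 1159 at 8C, 527, 580 and 601 at 16C, 223, 257 and 320 in morulae, 111, 127 and 132 in EarlyB, and 70.8, 103, 86.2 and 92.3 in ExpB. Its MII and 8C libraries were spread widely, and all 3 morula libraries were below all libraries of the earlier stages. Next in mean level were ZNF215, ZNF207, ZNF200 and ZNF638. The range between the highest and the lowest stage mean, on the log2(FPKM + 1) scale, had a median of 2.25 over the 100 genes. It was smallest for ZNF24 (0.80) and largest for ZNF596 (5.91).

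**Figure D1:**
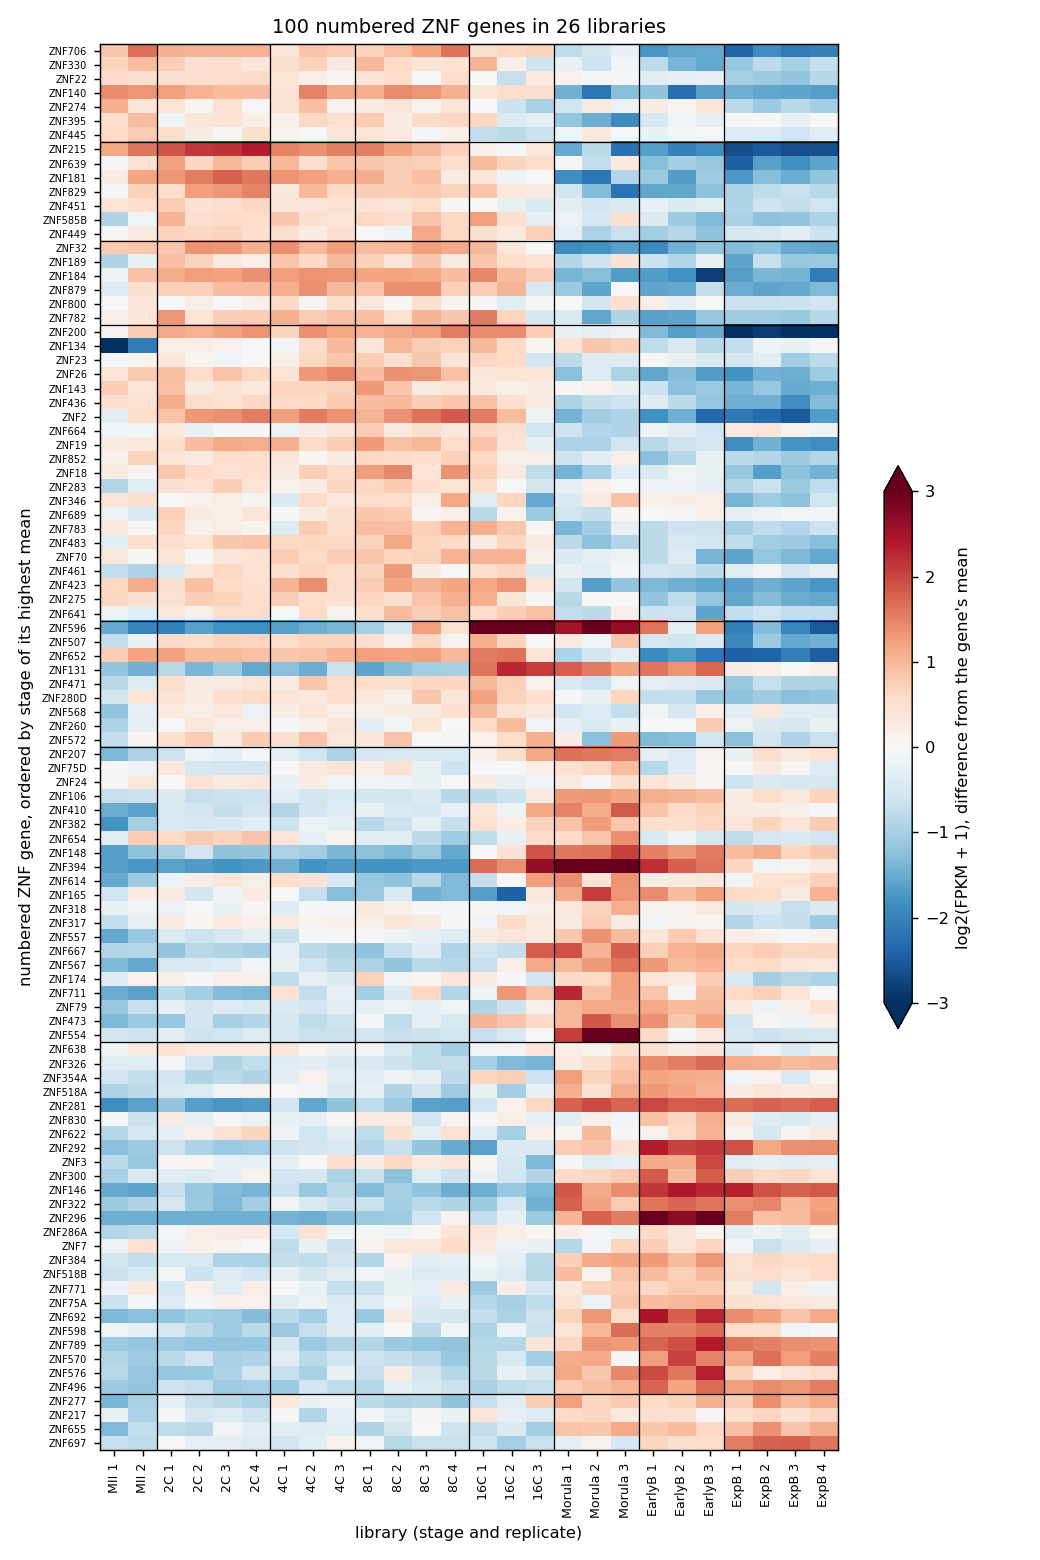
Each of the 100 numbered ZNF genes (rows, grouped by the stage of the highest mean FPKM) in each of the 26 libraries (columns), coloured by log2(FPKM + 1) minus the gene's own mean, with the colour scale ending at -3 and 3. The upper 50 rows, with the highest mean at MII to 16C, are mostly red on the left and blue from morula on, and the lower 50 rows are the reverse.

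The stage of the highest mean differed between genes and fell into an early and a late group. It was MII for 7 genes, 2C for 7, 4C for 6, 8C for 21, 16C for 9, morula for 21, EarlyB for 25 and ExpB for 4. The 5 stages up to 16C thus held 50 of the 100 genes (50.0%), beside 42.4% of the 9399 genes that met the same FPKM minimum, and ExpB held 4.0% beside 15.2%. The split of the early stages depended on the scaling of the libraries. When the summed FPKM of each library was set to be equal (TPM), 8C held 23 genes and 2C held 16. With median-ratio scaling, 8C held 4, MII 17 and 2C 16. The stages up to 16C together held 58 genes on the TPM scale and 57 with median-ratio scaling. The share of the 9399 genes on these scales is not given, so these counts do not show a stronger early placement of the ZNF genes. The count at 4C was 10 without 4C replicate 1, and that at 16C was 16 without 16C replicate 3.

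Numbered ZNF genes below the FPKM minimum were placed differently from the 100. Of those 158 genes, 73 (46.2%) had the highest mean in EarlyB, and 29.1% had it at a stage up to 16C. These shares are on the deposited scale, and none on another scale is given for the 158. Median-ratio scaling divides the EarlyB libraries by 1.22 to 1.26. The choice by level separates these lists, so the difference is a description. For 34 genes of related families (ZFP, ZSCAN, ZKSCAN and ZBTB) above the same minimum, 38.2% had the highest mean up to 16C and 5.88% had it in ExpB. A clean peak, with every library of the peak stage above all others, was seen for 21 of the 100 genes, beside 27.8% of the 9399 genes. These included 7 of the 21 genes with a morula peak, 10 of the 25 with an EarlyB peak and none of the 27 with a 4C or 8C peak. Shares by peak stage were not computed for the 9399 genes, so these counts show no trait of the ZNF genes. The 8C group also depends on the scaling, as given above.

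**Figure D2:**
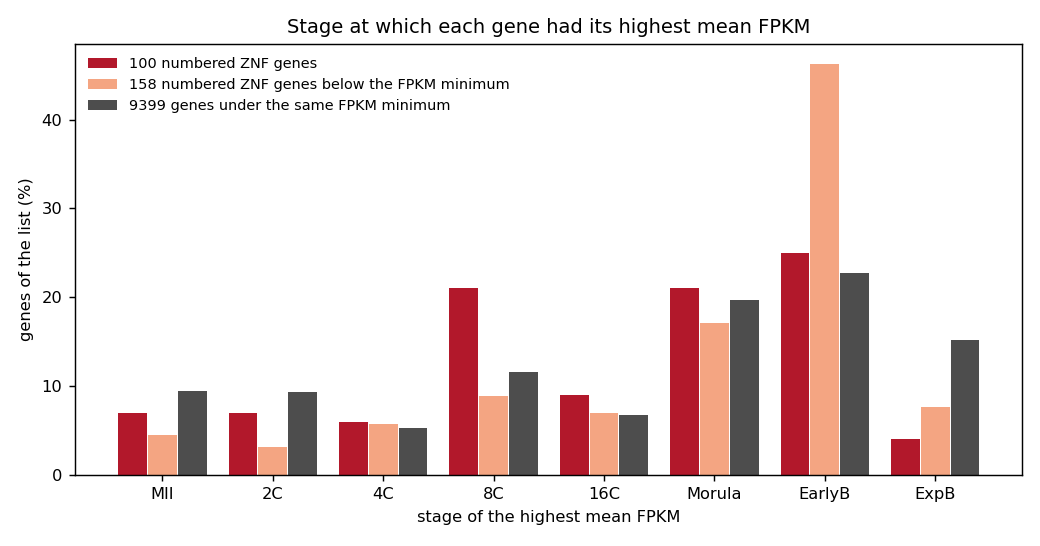
Share of genes (%, vertical axis) whose highest mean FPKM lay at each stage (horizontal axis), for the 100 numbered ZNF genes, the 158 numbered ZNF genes below the FPKM minimum and all 9399 genes above it. The 100 genes have 21.0% at 8C and 4.0% in ExpB, and the 158 have 46.2% in EarlyB. All shares are on the deposited FPKM scale, and the 8C share of the 100 genes depends on it.

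Stage differences were tested with limma on log2(FPKM + 1), two-sided, over all 15766 genes that reached an FPKM of 1 in 2 or more libraries. A gene was called higher or lower, and is said to have risen or fallen, at a Benjamini-Hochberg adjusted p under 0.05 with a difference of at least 1. This scale understates the changes of weakly expressed genes. By limma's F test over the 8 stages, 100 of the 100 genes differed, beside 93.7% of all genes tested and 98.4% of those above the same FPKM minimum. Successive comparisons share a stage, so a low or high library counts in both.

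**Figure D3:**
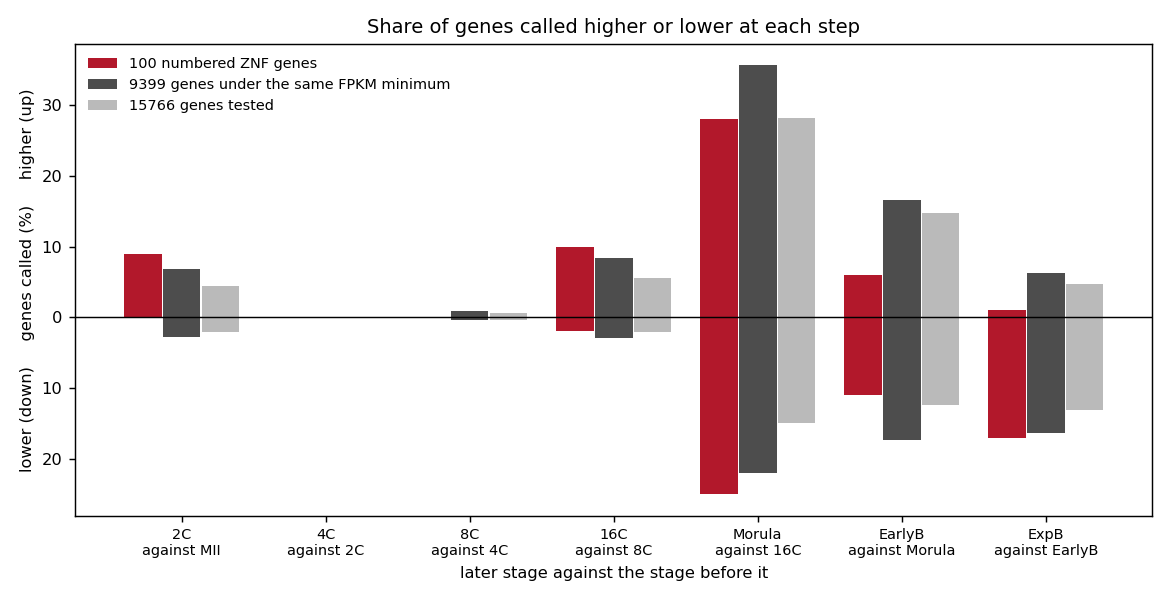
Percentage of genes called higher (upward bars) or lower (downward bars) at each step from one stage to the next, for the 100 numbered ZNF genes, all genes above the same FPKM minimum and all 15766 genes tested. The 100 genes have 28.0% higher and 25.0% lower in morulae against 16C, and 1.0% higher and 17.0% lower in ExpB against EarlyB.

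At 2C, 9 of the 100 genes were higher than in MII oocytes and none was lower, beside 4.44% higher and 2.01% lower among all genes tested, and 6.88% and 2.80% among those above the same FPKM minimum. The median difference of the 100 was 0.29, and that of all genes was 0.08. ZNF134 had 32.0, 32.8, 31.2 and 28.8 FPKM at 2C, against 2.61 and 5.90 in MII. The groups were far apart, with means in a ratio of 7.33 and a difference of 2.69 ± 0.29 (SE; limma, adjusted p = 4.2e-06). ZNF614 followed with 5.05, 7.06, 7.89 and 6.77 FPKM at 2C, against 1.40 and 2.31 in MII (difference 1.44 ± 0.38, limma adjusted p = 0.017). ZNF585B had 7.66, 5.00, 5.33 and 5.18 at 2C, against 1.27 and 2.90 in MII (1.18 ± 0.33, limma adjusted p = 0.023). In these genes both MII libraries were below every 2C library, and MII replicate 1 was the lower one.

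The other genes that rose at 2C were ZNF2, ZNF283, ZNF567, ZNF461, ZNF507 and ZNF189, with differences of 1.08 to 1.16. The count rested on the 2 MII libraries: it was 1 without MII replicate 1 and 17 without MII replicate 2, and ZNF614, ZNF585B and ZNF189 were not called without MII replicate 1. It was 19 on the TPM scale and 4 with median-ratio scaling, where the median difference of all genes was 0.17 and 0.0. The cumulus and granulosa sum moved the same way (62.3 to 248.7 FPKM at 2C, against 31.7 to 41.0 in MII, with AMH at 0 in MII), and its part in these calls was not tested.

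Between 2C and 8C few changes of the required size were seen. In 4C against 2C, no numbered ZNF gene was called either way, beside 0.00634% of all genes higher and 0.0% lower; 9 of the 100 had an unadjusted p under 0.05, and so had 1329 of the 15766 genes (limma). In 8C against 4C, again none of the 100 was called, beside 0.577% higher and 0.33% lower among all genes. Here 12 had an unadjusted p under 0.05 in limma, and limma-voom on recovered reads called 1. That count was between 0 and 2 when single libraries were left out, with 2 without 16C replicate 3 and 1 without 4C replicate 3, 8C replicate 1, 16C replicate 1, Morula replicate 2 or EarlyB replicate 2. The cumulus and granulosa sum was 20.9 to 139.6 FPKM at 8C, against 150.7 to 557.2 at 4C.

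A small set of genes rose at 16C, some from near 0 and others from a level already well above it. In 16C against 8C, 10 of the 100 genes were higher and 2 lower, beside 5.54% and 2.01% of all genes tested, and 8.42% and 2.88% of those above the same FPKM minimum. On the TPM scale the split was 10 higher and 6 lower. Against 4C, the window that spans the known activation of the sheep embryonic genome, 8 were higher and 3 lower at 16C, beside 5.35% and 2.84% of all genes and 7.98% and 3.77% of those above the same FPKM minimum, and on the TPM scale 9 were higher and 6 lower.

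ZNF596, a KRAB zinc finger gene, had 132, 220 and 131 FPKM at 16C, against 4.03, 6.09, 22.8 and 12.7 at 8C. All 16C libraries were above all 8C libraries, and the 8C libraries were spread more widely than the 4C libraries (2.26, 2.66 and 2.88 FPKM). The means were in a ratio of 14.1, and the difference was 3.92 ± 0.43 (limma, adjusted p = 5.8e-07). After 16C its FPKM was 56.1, 103 and 61.6 in morulae, 29.6, 7.39 and 22.2 in EarlyB, and 1.42, 3.05, 1.53 and 0.754 in ExpB, a level like that of MII (2.53 and 1.52).

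ZNF394, which carries SCAN and KRAB domains, was close to 0 up to 8C. It had 10.1, 8.07 and 20.7 FPKM at 16C, against 0, 0, 0.0464 and 0.0560 at 8C, which were 734, 516 and 1399 recovered reads against 0, 0, 3 and 4. The difference was 3.66 ± 0.23 (limma, adjusted p = 1.3e-10). Its FPKM reached 32.8, 29.2 and 40.6 in morulae and then fell to 15.1, 11.0 and 9.50 in early blastocysts and to 4.45, 2.19, 2.68 and 3.10 in expanded ones. The gene was thus high in morulae and intermediate in the libraries of the stages on either side.

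ZNF131, a zinc finger protein with a BTB domain, had 16.4, 26.3 and 23.3 FPKM at 16C, against 0.901, 1.31, 1.78 and 1.87 at 8C. No libraries overlapped, and the difference was 3.21 ± 0.22 (limma, adjusted p = 4.5e-10). It stayed at 18.9, 15.8 and 11.9 in morulae and at 16.2, 13.4 and 17.8 in EarlyB, and was lower in ExpB, with 5.73, 5.50, 4.69 and 5.35 (difference -1.41 ± 0.22, limma adjusted p = 3.2e-05).

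The library 16C replicate 3 was higher than the other 16C libraries for several of the genes that rose, and its part in them was tested by leaving it out. ZNF148 had 23.9 FPKM there, against 5.63 and 8.08 in the other 16C libraries and 1.30 to 2.12 at 8C. Its difference from 8C was 2.08 ± 0.29 (limma, adjusted p = 2.1e-05). ZNF614 and ZNF207 were not called against 8C without that library, and neither were ZNF207, ZNF281 and ZNF410 against 4C. ZNF274 fell at 16C against 4C, and 16C replicate 3 was its lowest 16C library (2.50 FPKM, others 5.93 and 3.40). That call was also lost without 16C replicate 3. ZNF689 and ZNF18, the 2 genes that fell against 8C, had 1.89, 4.53 and 1.36 FPKM and 10.4, 7.32 and 3.07 FPKM at 16C. At 8C they had 8.07, 7.84, 4.45 and 4.93 FPKM and 15.3, 17.7, 8.19 and 16.4 FPKM. Their libraries overlapped, and both calls were lost when 16C replicate 3, 8C replicate 1 or 8C replicate 2 was left out. ZNF689 also lost its call without 16C replicate 1, and ZNF18 without 8C replicate 4 and with median-ratio scaling.

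**Figure D4:**
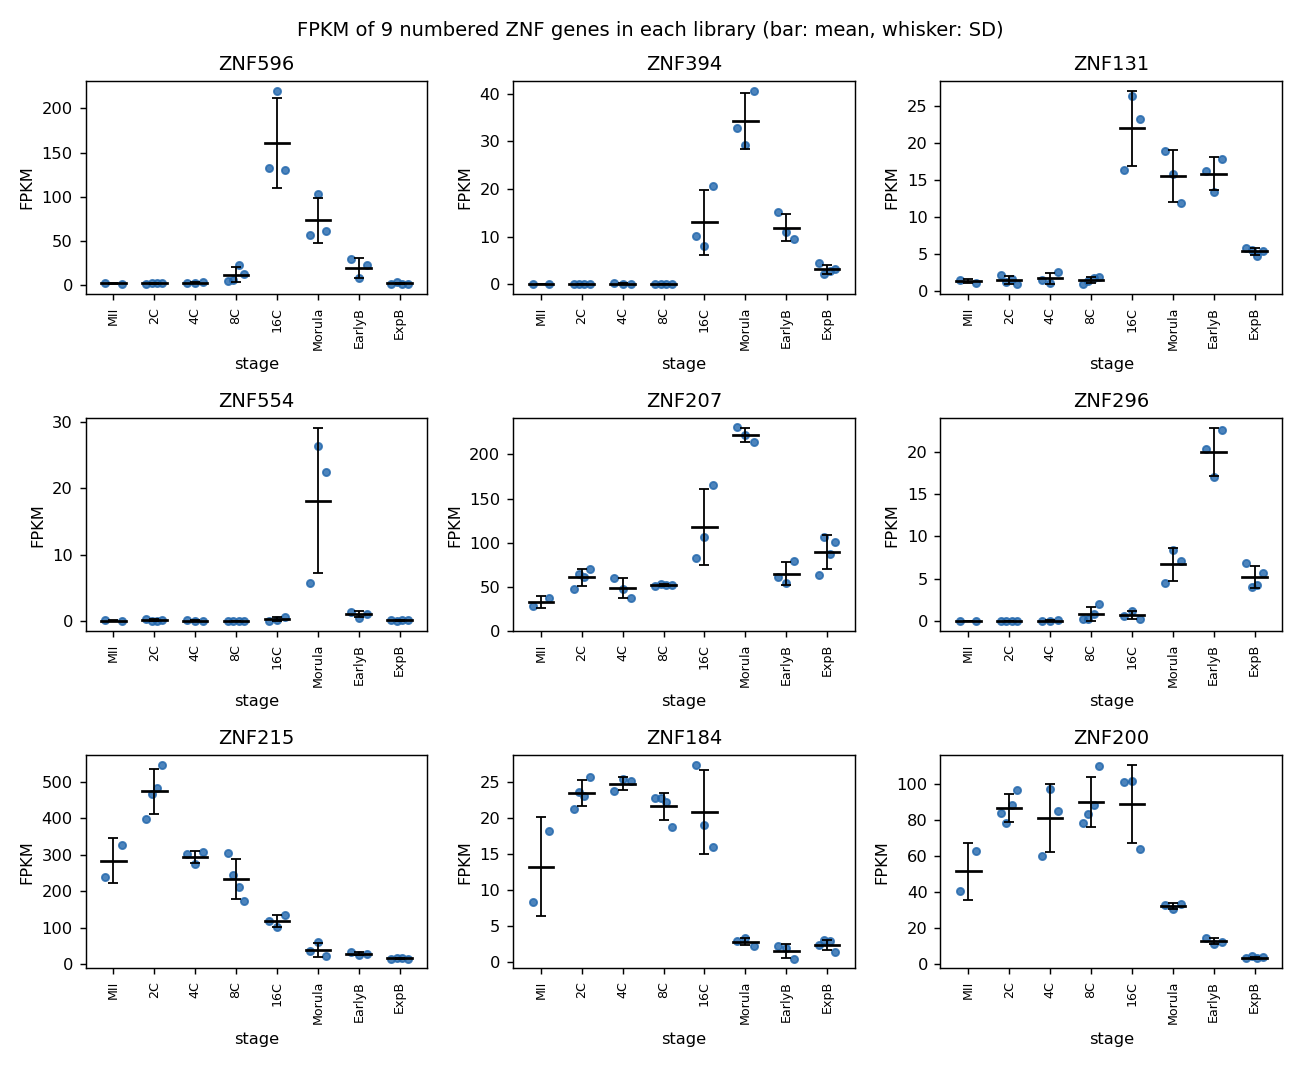
FPKM (vertical axis, linear) of 9 numbered ZNF genes in each library (points) by stage (horizontal axis), with the stage mean as a bar and the SD as a whisker. ZNF596 is highest at 16C (131 to 220), ZNF394, ZNF554 and ZNF207 in morulae, ZNF296 in EarlyB, and ZNF215 at 2C (399 to 546), while ZNF184 and ZNF200 are high until 16C and low from morula on.

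The largest turnover lay between 16C and morula. In morulae 28 of the 100 genes were higher and 25 lower, beside 28.1% and 15.0% of all genes tested, and 35.6% and 22.0% of the genes above the same FPKM minimum. The balance depended on scaling, with 23 higher and 33 lower on the TPM scale and 23 higher and 29 lower with median-ratio scaling. The median difference of all genes was 0.32 on the deposited scale, 0.13 on the TPM scale and 0.18 with median-ratio scaling, and that of the 100 genes was 0.19 on the deposited scale. Of the 28 genes that rose, 18 had their highest mean in EarlyB and 9 in morulae. Of the 25 that fell, 11 had it at 8C. Peak stages and calls come from the same values, so this division is largely set in advance and is only a description. The number at 8C also depends on the scaling.

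ZNF554, a KRAB gene studied in human placental trophoblast, reached an FPKM of 5 in morulae only. It had 5.73, 26.4 and 22.5 FPKM in morulae, against 0, 0.148 and 0.599 at 16C. The morula libraries differed by several fold among themselves, yet all lay above the others (difference 3.73 ± 0.32, limma adjusted p = 1.7e-09). In EarlyB it had 1.43, 0.530 and 1.03 FPKM, a ratio of 0.0548 to the morula mean, and in ExpB it had 0.0197 to 0.117.

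ZNF146, a protein made of little but zinc fingers, had 10.7, 6.07 and 7.58 FPKM in morulae, against 0.162, 0.455 and 0.263 at 16C. The means were in a ratio of 27.6, and the difference was 2.79 ± 0.21 (limma, adjusted p = 3.7e-10). It then remained at 13.3, 16.2 and 14.5 in EarlyB and at 15.1, 11.2, 10.02 and 10.5 in ExpB. ZNF165, known in humans as a testis and tumour antigen, had 10.9, 21.5 and 12.5 FPKM in morulae, against 0.708, 0 and 5.79 at 16C (difference 2.76 ± 0.47, limma adjusted p = 2.8e-05). Its 16C libraries were uneven, with 16C replicate 3 just above the range of MII and 2C libraries (2.54 to 5.49 FPKM).

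The 3 genes that fell most at the morula stage had been present in every library up to 16C. ZNF184, a KRAB gene, had 2.95, 3.27 and 2.25 FPKM in morulae, against 27.4, 19.1 and 16.0 at 16C (difference -2.49 ± 0.28, limma adjusted p = 7.9e-08). From 2C to 8C its 11 libraries had lain between 18.8 and 25.7. ZNF32 had 3.80, 4.06 and 4.67 FPKM in morulae, against 33.6, 21.7 and 16.8 at 16C (-2.22 ± 0.22, limma adjusted p = 1.3e-08). ZNF140, also a KRAB gene, had 2.63, 1.17 and 3.07 in morulae, against 11.6, 13.4 and 12.8 at 16C (-2.10 ± 0.26, limma adjusted p = 3.5e-07). In all 3 genes the low level persisted in both blastocyst stages, where no library exceeded 6.78 FPKM.

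Several of the most abundant genes of the oocyte and early embryo fell at the same step. ZNF215, a SCAN and KRAB gene of the human imprinted region linked to Beckwith-Wiedemann syndrome, had 240 and 328 FPKM in MII, 399, 468, 483 and 546 at 2C, 301, 275 and 307 at 4C, 305, 246, 211 and 175 at 8C, and 119, 102 and 136 at 16C. It then had 36.5, 60.0 and 21.7 in morulae, 33.4, 25.4 and 28.3 in EarlyB and 16.1 to 17.6 in ExpB. The 2C libraries were the highest of all, and from 16C on each stage was below the one before it, except that EarlyB and morula libraries overlapped. The fall was called at 16C against 4C (-1.31 ± 0.25, limma adjusted p = 0.00090) and in morulae against 16C (-1.67 ± 0.25, limma adjusted p = 5.4e-06). ZNF200 had 32.6, 30.7 and 33.6 FPKM in morulae, against 101, 102 and 64.1 at 16C, and fell again to 14.4, 11.2 and 12.5 in EarlyB and to 3.10, 4.34, 3.19 and 3.78 in ExpB. ZNF706 fell in morulae against 16C and in EarlyB against Morula (differences -1.11 ± 0.23 and -1.09 ± 0.23, limma adjusted p = 0.00020 and 0.00040), but not beyond the threshold without Morula replicate 1 against 16C, or without Morula replicate 3 in EarlyB against Morula. ZNF652, ZNF181 and ZNF26 also fell in morulae (differences -1.78, -1.72 and -1.24).

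Fewer genes moved when the blastocyst formed. In EarlyB against Morula, 6 of the 100 genes were higher and 11 lower, beside 14.7% and 12.4% of all genes tested, and 16.6% and 17.3% of those above the same FPKM minimum. The split was 5 higher and 16 lower on the TPM scale and 5 higher and 15 lower with median-ratio scaling, and 27 genes were called without Morula replicate 2. ZNF3 had 11.2, 11.0 and 21.2 FPKM in EarlyB, against 4.32, 3.34 and 3.72 in morulae (difference 1.63 ± 0.28, limma adjusted p = 4.8e-05). ZNF292, a large protein whose gene is mutated in a human neurodevelopmental disorder, had 22.1, 17.5 and 18.6 in EarlyB, against 6.59, 7.09 and 5.09 in morulae (1.49 ± 0.27, limma adjusted p = 7.6e-05). For both genes every EarlyB library was above every library of all other stages. The largest falls were those of ZNF554, ZNF596 (-1.99 ± 0.46) and ZNF207 (-1.77 ± 0.24), each without overlap between the stages. ZNF134 fell as well, with 16.2, 19.9 and 15.5 FPKM in EarlyB, against 38.3, 50.0 and 47.4 in morulae, and ZNF75D (13.2, 18.7 and 25.7 in EarlyB, against 34.1, 38.1 and 48.7 in morulae) was called lower except without Morula replicate 3 or EarlyB replicate 1.

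In expanded blastocysts more genes were called lower than higher, among the 100 genes as among all genes tested. The share of the 100 that fell was near that of the genes above the same FPKM minimum. In ExpB against EarlyB, 1 gene was higher and 17 lower, beside 4.65% and 13.1% of all genes tested, and 6.32% and 16.4% of those above the same FPKM minimum. The median difference was -0.50 for the 100 genes and -0.30 for all genes, and with median-ratio scaling that of all genes was -0.08. Under that scaling 10 of the 100 genes were called in all, 1 higher and 9 lower. The gene that rose was ZNF697, with 8.50, 10.2, 10.4 and 8.97 FPKM in ExpB, against 4.15, 3.57 and 3.70 in EarlyB (difference 1.13 ± 0.19, limma adjusted p = 9.2e-05). The largest falls were those of ZNF596 (-2.82 ± 0.43, limma adjusted p = 2.3e-05), ZNF296 and ZNF3. ZNF3 had 3.34, 3.56, 3.43 and 3.63 FPKM in ExpB, against 11.2, 11.0 and 21.2 in EarlyB, so that its ExpB libraries were back at the morula level. ZNF277 and ZNF655, which had their highest means in ExpB, had 16.9 to 27.5 and 9.75 to 14.3 FPKM there, against 15.3 to 21.4 and 8.17 to 10.5 FPKM in EarlyB, and these overlapping values were not called different.

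Among members known to work on RNA, ribosomes or the spindle (10 of a list of 11 genes), no call was made before 16C. In morulae 3 of the 10 rose and 1 fell (ZNF706, described above) relative to 16C, beside 28.1% and 15.0% of all genes tested. In ExpB 3 of the 10 fell relative to EarlyB, beside 13.1% of all genes. ZNF207 (BuGZ), which loads BUB3 onto kinetochores and helps to assemble the spindle, had 82.3, 106 and 166 FPKM at 16C, against 51.4, 53.4, 52.5 and 52.8 at 8C. It peaked at 231, 221 and 214 in morulae and dropped to 61.0, 54.8 and 79.3 in EarlyB (limma, adjusted p = 2.4e-06). The rise at 16C (1.09 ± 0.22, limma adjusted p = 0.0014) was not called on the TPM scale.

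ZNF326, part of a complex that couples transcript elongation to splicing, had 18.1, 20.7 and 25.9 FPKM in morulae, against 6.83, 5.16 and 4.93 at 16C (difference 1.76 ± 0.19, limma adjusted p = 4.6e-08). It had 40.5, 43.8 and 49.3 in EarlyB, a further rise of 1.02 that was lost on the TPM scale, with median-ratio scaling, and without Morula replicate 1 or EarlyB replicate 3. ZNF106, an RNA-binding protein, had 40.5, 41.0 and 38.0 FPKM in morulae, against 8.89, 9.92 and 20.0 at 16C. ZNF598, the ubiquitin ligase that senses collided ribosomes, had 3.23, 5.42 and 9.20 in morulae, against 0.658, 1.82 and 1.01 at 16C, and was lower again in ExpB (1.96 to 3.70) than in EarlyB (8.06 to 9.27).

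The remaining genes of this group were called in no comparison or only in ExpB. ZNF638, which binds RNA and works with the HUSH silencing complex on retroviral DNA in human cells, stayed between 16.5 and 48.7 FPKM in all 26 libraries and was called in no comparison. ZNF622, needed in its yeast form for the maturation of the large ribosomal subunit, ranged from 2.40 to 13.0 and was not called either. ZNF330, a nucleolar protein, had 13.7 to 19.0 in ExpB, against 50.8 and 60.7 in MII, but no single step passed the threshold. ZNF830, linked to the spliceosome, and ZNF346, which binds double-stranded RNA, fell in ExpB, with 4.31 to 7.80 and 1.65 to 3.67 FPKM there, against 10.4 to 14.5 and 6.95 to 7.21 in EarlyB. Both calls were lost with median-ratio scaling, and that of ZNF830 also without EarlyB replicate 3.

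Of 9 genes on a list named promoter activators, 6 were among the 100. The name is only a label, and whether their proteins activate or repress promoters here was not tested. Relative to 8C, 3 of these 6 (ZNF131, ZNF148 and ZNF281) rose at 16C. The share was 5.54% among all genes tested and 8.42% among those above the same FPKM minimum. The calls of ZNF148 and ZNF281 were lost in a fit of these 2 stages alone. ZNF281, which takes part in the control of pluripotency in mouse embryonic stem cells, had 3.22, 6.01 and 8.85 FPKM at 16C, against 2.76, 2.01, 1.10 and 1.03 at 8C (difference 1.33 ± 0.26, limma adjusted p = 0.00091). In morulae it rose again, to 20.7, 23.9 and 20.4, and it stayed between 19.3 and 24.7 in both blastocyst stages. ZNF410, known in human and mouse cells for activating the single gene CHD4, had 41.6, 32.3 and 54.0 FPKM in morulae, against 19.3, 12.8 and 33.3 at 16C. That difference of 1.01 ± 0.23 (limma, adjusted p = 0.00071) was just above the threshold, with overlapping libraries, and was lost under both other scalings and without 16C replicate 1, 16C replicate 2 or Morula replicate 3. CHD4 itself averaged 20.5 ± 2.94 FPKM in morulae and 14.7 ± 3.61 at 16C (SD, n = 3 each), and it was not called in any comparison. ZNF143, an activator of small nuclear RNA and many other promoters, had 3.93 to 5.41 FPKM in ExpB, against 16.0 to 24.8 at 2C, with no single step called, and ZNF24 stayed between 12.9 and 29.2 in all libraries.

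Of 14 genes listed for chromatin or SUMO, 5 were among the 100. ZNF296, linked to pluripotency and reprogramming in mouse cells, was listed at 0 in all 6 MII and 2C libraries. It had 4.57, 8.44 and 7.14 FPKM in morulae, against 0.645, 1.24 and 0.268 at 16C (difference 2.17 ± 0.27, limma adjusted p = 3.8e-07). It rose further to 20.3, 17.0 and 22.6 in EarlyB (1.47 ± 0.27, limma adjusted p = 0.00011) and had 6.92, 4.07, 4.28 and 5.66 in ExpB (-1.77 ± 0.25, limma adjusted p = 1e-05). ZNF274, which brings SETDB1 to clusters of zinc finger genes in human cells, was lower in ExpB (2.999, 2.23, 2.88 and 2.40) than in EarlyB (7.27, 6.31 and 7.92 FPKM), a call lost with median-ratio scaling. Its call as lower at 16C than at 4C was also lost without 4C replicate 2 or 16C replicate 2.

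ZNF445, which maintains methylation at imprinted loci together with ZFP57 in mouse and human, was highest in MII oocytes with 5.25 and 6.04 FPKM. It had 1.48, 1.36 and 1.59 at 16C, against 4.50, 3.94, 3.03 and 3.56 at 8C, and 2.80, 4.13 and 3.07 in morulae, and none of these differences was called. ZNF451, a SUMO ligase, ranged from 1.77 to 2.44 in ExpB and from 5.91 to 7.89 in MII and 2C libraries. ZNF217, found in corepressor complexes with CoREST in human cells, had 8.19 to 9.64 in ExpB and 2.52 to 5.54 in MII and 2C. ZNF423, the single member from a list of 7 genes of differentiation and a regulator of neural and fat cell precursors in mouse, had 1.54, 0.193 and 0.655 FPKM in morulae, against 7.44, 8.55 and 3.80 at 16C (-2.09 ± 0.27, limma adjusted p = 5.9e-07).

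The partners through which KRAB proteins silence DNA were examined as a list of 23 genes, which also held the KRAB gene ZFP57. Of the 23, 22 were in the table and 21, with ZFP57, were tested. TRIM28 averaged 6.00 ± 0.72 FPKM at 2C (SD, n = 4), against 18.4 ± 3.89 in MII (n = 2), and fell by 1.46 on the log2(FPKM + 1) scale (limma, adjusted p = 0.00046). It averaged 31.2 ± 8.85 in morulae, against 5.97 ± 1.45 at 16C (SD, n = 3 each), a rise of 2.19 ± 0.23 (limma, adjusted p = 4.3e-08). The other partners that fell at 2C were MPHOSPH8, a subunit of the HUSH complex, and UHRF1, and both calls were lost without MII replicate 1. In all, 3 of the 21 fell at 2C, beside 2.01% of all genes tested and 2.80% of those above the same FPKM minimum. TRIM28 had its lowest stage means from 2C to 16C, where 52 to 61 of the 100 genes had an FPKM of at least 5. That number was 52 to 69 in morulae and 61 to 67 in EarlyB, where TRIM28 averaged 31.2 and 59.6 FPKM. How many of the 100 genes carry a KRAB domain was not determined.

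Other partners moved at other steps. Relative to 16C, 4 of the 21 rose in morulae (TRIM28, HDAC1, MORC3 and DAXX) and 2 fell, beside the background of 28.1% and 15.0% given above. Those that fell were the maintenance methyltransferase DNMT1, with 13.1 ± 4.51 FPKM in morulae, against 171 ± 67.7 at 16C, and its cofactor UHRF1, with 7.22 ± 2.88, against 45.5 ± 19.2 (SD, n = 3 each; limma adjusted p = 5e-11 and 2.9e-07). At 16C relative to 8C, 3 of the 21 rose (CBX3, HDAC1 and HDAC2) and 1 fell (CBX1). The shares were 5.54% and 2.01% among all genes tested, and 8.42% and 2.88% among those above the same FPKM minimum. Without 16C replicate 3 the calls of CBX3, HDAC1 and CBX1 were lost, and in a fit of these 2 stages alone that of HDAC2 was lost as well. SETDB1 averaged 5.02 ± 0.49 FPKM in ExpB (n = 4), against 11.4 ± 2.68 in EarlyB (n = 3), and was called lower (limma, adjusted p = 0.0034) except with median-ratio scaling and without EarlyB replicate 3 or ExpB replicate 1. ZFP57, the KRAB protein of imprint maintenance, had stage means of 0 to 0.00825 FPKM from MII to 8C and of 1.42, 2.27 and 1.70 in morulae, EarlyB and ExpB.

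Few of the 100 genes sit next to each other, and the share of such pairs with a common peak stage was near that of all pairs. In the RefSeq gene order (assembly ARS-UI_Ramb_v3.0), where 94 of the 100 symbols were found, 7 pairs of these genes were direct neighbours among protein-coding genes. ZNF19 and ZNF23 both had the highest mean at 8C, and the other 6 pairs had different peak stages, which makes 14.3% with the same stage beside 16.5% over all 4950 pairs of the 100 genes. The correlation of log2(FPKM + 1) over the 8 stage means had a median of 0.55 for the 7 pairs and of 0.13 for all pairs, and it ran from -0.21 (ZNF567 and ZNF461) to 0.92 (ZNF655 and ZNF789). These correlations share libraries and stages and are a description.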

How the data were processed

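The authors deposited 1 table of FPKM values, with 30186 genes in rows and 26 libraries in columns. Reads had been processed with featureCounts 2.0.1, HISAT2 2.1.0, fastp 0.23.4 and SAMtools 1.9, per the submitters' processing notes, which give no order. Not given in the sources used here: the genome build, annotation and handling of multi-mapping reads, so no positions are printed. Columns were matched to stages by their labels.

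Depth was computed from the steps between low FPKM values, which gave whole reads (within 0.05 reads) for at least 99.7% of the values of up to 20 reads checked per library. Gene lengths, and from them reads, were found for 23355 of 23577 genes. Counting error covers reads only, since Smart-seq2 has no molecular identifiers.

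The main test was limma 3.58.1 (R 4.3.3; lmFit on 8 stage means over all 26 libraries, contrasts.fit, eBayes with trend; 18 residual and 4.6 prior degrees of freedom) on log2(FPKM + 1), with Benjamini-Hochberg adjustment over 15766 genes within each of 8 contrasts. It was tested on simulated data with known changes. Alternatives were a pseudocount of 0.1, no filter, TPM and median-ratio scaling, limma-voom on recovered reads, a fit on 2 stages only, the replicate number as a block, and leaving out each library. Deviations of libraries with the same replicate number correlated at -0.146 to 0.396 over 80 pairs (median 0.004), and 13 pairs were over 0.1. With different numbers they correlated at -0.396 to 0.338 over 214 pairs (median -0.005), and 21 pairs were over 0.1. The main test did not treat the numbers as pairs, and this check cannot exclude a shared batch or pool.

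Genes were named by a rule: in each contrast the 3 largest rises and falls called, the 5 highest levels, the 3 highest for each peak stage, and members of 4 role lists. The members and lists were chosen with earlier results of these data known. Other genes are named where a count was small, after their values were seen. Protein and promoter sequences were not analysed here.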

Additional observations from a re-analysis of the deposited data

Results flagged for a closer look

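In stages with 4 libraries (2C, 8C and ExpB), 156 groups of values of the 52 named genes were checked for a library set apart from the other 3 by Dixon's test at the 95% level. There were 7, and chance gives about 1 in 20 groups. Of these, 4 concerned 2C replicate 1, which was the highest for ZNF75D (30.7 FPKM, others 16.3 to 16.9), ZNF585B (7.66, others 5.00 to 5.33), ZNF638 (47.5, others 42.1 to 42.9) and ZNF281 (1.80, others 0.90 to 1.04). ExpB replicate 2 was the lowest for ZNF554 (0.0197 FPKM, others 0.102 to 0.117) and the highest for ZNF641 (1.26, others 1.06 to 1.07). 8C replicate 4 was the lowest for ZNF184 (18.8 FPKM, others 22.2 to 22.8). ZNF585B, whose call at 2C against MII rests in part on 2C replicate 1, was not called without that library.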

How the results depend on the processing

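Of 75 calls of named genes, 48 held under every alternative and none changed direction. The number of the 100 genes called moved by more than 1.5 times in these cases. For 2C against MII it was 9, and it was 16 with a pseudocount of 0.1, 19 on the TPM scale, 4 with median-ratio scaling and 5 in a fit of these 2 stages alone. For 8C against 4C it was 0, and it was 2 with a pseudocount of 0.1, 1 on the TPM scale, 2 with median-ratio scaling and 1 with limma-voom on recovered reads. In fits of 2 stages alone it was 4 for 16C against 8C (main 12) and 4 for 16C against 4C (main 11). A pseudocount of 0.1 gave 26 for EarlyB against Morula (main 17), and median-ratio scaling gave 10 for ExpB against EarlyB (main 18). Apart from the fit of fewer libraries, the cause was not tested. The shares of all genes called under these alternatives are not given here, so the counts do not show a change relative to other genes. When single libraries were left out, the counts ran from 1 to 17 for 2C against MII, 0 to 0 for 4C against 2C, 0 to 2 for 8C against 4C, 8 to 17 for 16C against 8C, 46 to 62 for Morula against 16C, 16 to 27 for EarlyB against Morula, 15 to 22 for ExpB against EarlyB, 8 to 15 for 16C against 4C and 99 to 100 for any stage.

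With the replicate number as a block, the counts were 8, 0, 0, 12, 53, 17 and 17 for the successive steps, 11 for 16C against 4C and 100 for any stage, none of them moved by more than 1.5 times, and 10 of 26 libraries correlated best with their own number. Selecting genes at an FPKM of at least 1 gave 183 genes, of which 40.4% had the highest mean up to 16C, and at least 10 gave 58 genes with 56.9%. Shares of all genes at these minimums are not given. With stage medians in place of means, 85 of the 100 genes kept their peak stage, on the TPM scale 83 and with median-ratio scaling 68. MII has 2 libraries, which limits every comparison with it.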
